A study of Arabidopsis thaliana with 6 samples.

Results

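Expansins are a superfamily of secreted plant cell wall proteins, and the 34 Arabidopsis thaliana expansin genes listed by locus were followed here among 26984 nuclear genes measured by RNA-seq. They comprise 25 alpha-expansins (EXPA), 5 beta-expansins (EXPB), and 3 genes of the expansin-like A (EXLA) and 1 of the expansin-like B (EXLB) families. Members were chosen by family membership, with no expression value in the rule, though earlier results of these data were known when the list was drawn up. Whole seedlings of the hy5-215 mutant (3 libraries, numbered 4 to 6) were compared with the Col_0 wild type (3 libraries, numbered 1 to 3), and all seedlings were 7 days old, had been raised under short days and were sampled at zeitgeber time 20 h. The mutant is represented by the single allele hy5-215, and no agent was applied to either genotype.

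Expansins loosen the wall without cutting its polymers, by weakening the contacts between cellulose and matrix polysaccharides, and they work best in an acidic wall. This makes them effectors of acid growth, in which plasma membrane proton pumps acidify the wall and cells extend. Alpha-expansins are the main family of dicot plants, beta-expansins include the pollen allergens of grasses, and wall-loosening activity has not been established for the expansin-like proteins. HY5, a transcription factor of the basic leucine zipper class, drives seedling development in light and restrains hypocotyl elongation.

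Levels are given as FPKM, a fragment count divided by the length of the gene and the size of the library, which allows comparison between genes per length. The FPKM of all genes summed to between 542426 and 549245 in hy5 libraries and between 528554 and 556418 in Col_0 libraries. Read counts cannot be obtained from the tables, but the spacing of the lowest values placed the other libraries at about 0.939 to 1.03 times the depth of Col_0 1. HY5 itself stood at 3.04, 1.88 and 3.02 FPKM in hy5 4, 5 and 6 and at 13.4, 13.0 and 13.9 FPKM in Col_0 1, 2 and 3, so the libraries carry the genotype on their labels. Shoot and root markers were present in all 6 libraries, with the root markers CASP1 and CASP2 at 24.4 FPKM or more in hy5 and at 10.5 FPKM or more in Col_0. Of 4 shoot markers, 0 passed between genotypes by limma (1 at an unadjusted p under 0.05), beside 22.8% of all tested genes that passed. RBCS1A was at 13460 FPKM or more in every library. RNA came from whole seedlings, so fewer cells of a type and less RNA per cell cannot be told apart. Nothing in the labels says that libraries came from separate plantings, and p-values therefore cover just the variation among the 6 libraries, part or all of which may be technical.

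The expansin-like genes and EXPA4 were higher in hy5, while EXPA1, the most abundant expansin, was lower. Of the 34 genes, 22 reached 1 FPKM in at least 3 libraries and could be tested. Among these 5 rose (EXPA4, EXPB3, EXLA1, EXLA2 and EXLB1), 3 fell (EXPA1, EXPA10 and EXPA18) and 14 did not pass a limma adjusted p of 0.05. The background was high, since 22.8% of all 17205 tested genes passed, with 11.7% higher and 11.1% lower in hy5. The tested expansins were higher in 22.7% of cases and lower in 13.6%, and the share that was lower is near its background. The median log2 fold change was 0.05 for the 22 expansins and -0.00094 for all tested genes. Log2 fold changes here and below are hy5 over Col_0 on FPKM + 1, a scale that understates the change of low genes. Without regard to the test, 6 tested expansins had all hy5 libraries above all Col_0 libraries and 4 had them below, against 20.6% and 19.5% of all tested genes.

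**Figure D1:**
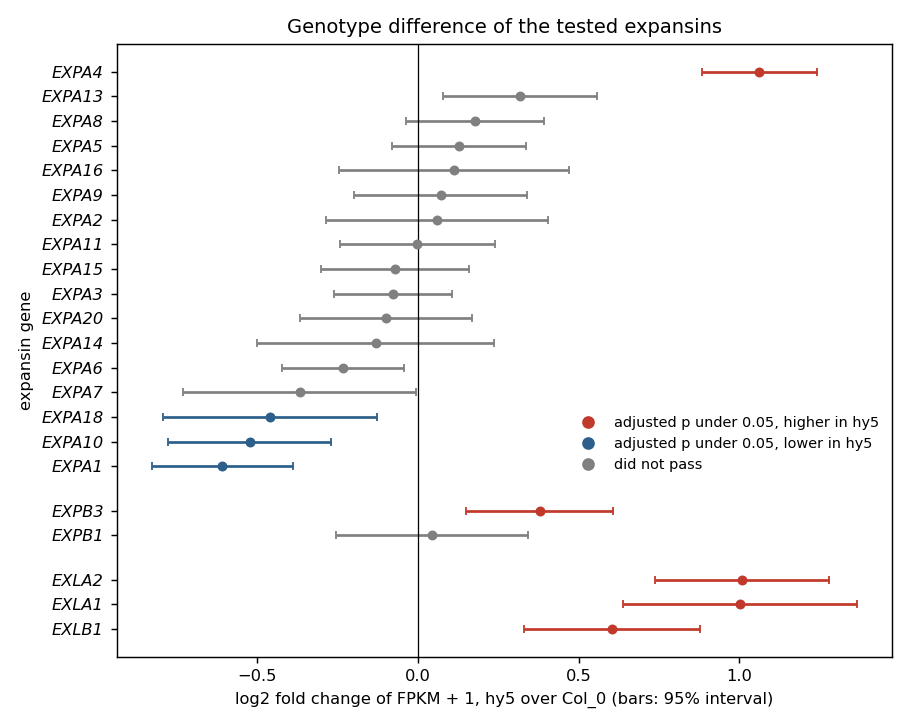
Log2 fold change of FPKM + 1 (hy5 over Col_0) for the 22 tested expansins, grouped as EXPA, EXPB and expansin-like genes from top to bottom, with 95% intervals from limma. All 3 expansin-like genes lie to the right of 0, while the 17 alpha-expansins run from EXPA4 at 1.06 to EXPA1 at -0.61.

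By family, the alpha-expansins moved in both directions and the expansin-like genes in 1. Of 17 tested alpha-expansins 1 rose and 3 fell (5.88% and 17.6%, beside 11.7% and 11.1% of all tested genes). Their median log2 fold change was -0.07. Of 2 tested beta-expansins 1 rose and 1 did not pass. All 3 tested expansin-like genes rose, with a median of 1.0. These counts describe small families, and the difference between families was not tested.

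EXPA4 (AT2G39700; minus strand of chromosome 2, chr2:16543832-16545746, 3 exons) showed the largest change among the tested expansins on the log2 scale of FPKM + 1. With a pseudocount of 0.1 it stood at 1.08, below EXLA1 at 1.17 and EXLA2 at 1.12. Its level was 76.7, 85.2 and 83.0 FPKM in hy5 4, 5 and 6, against 38.3, 38.1 and 39.2 FPKM in Col_0 1, 2 and 3. The genotypes were far apart and the Col_0 libraries nearly equal. The means were 81.7 ± 4.41 FPKM in hy5 and 38.6 ± 0.55 FPKM in Col_0 (SD, n = 3 each), a 2.12-fold difference (log2 fold change 1.06 with SE 0.083, limma adjusted p = 1.3e-06). The closest member by coding sequence is EXPA16, identical at 81.1% of aligned coding bases, and it did not pass, at 11.5 ± 2.90 FPKM in hy5 and 10.5 ± 1.86 FPKM in Col_0 (SD, n = 3 each). The next relative, EXPA6, shares 77.6% with EXPA4 and stood at 69.3 ± 6.29 FPKM in hy5 and 81.4 ± 1.57 FPKM in Col_0 (SD, n = 3 each). For EXPA6 the hy5 libraries, at 65.1 to 76.5 FPKM, lay below those of Col_0, at 79.8 to 83.0 FPKM, but the difference missed the threshold (log2 fold change -0.23, SE 0.088, limma adjusted p = 0.074). It passed without hy5 5 (0.028) and with quantile normalization (0.043). No part of at least 50 bases of the EXPA4, EXPA6 or EXPA16 exons had a copy of 95% or more identity elsewhere in the genome.

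EXPA1 (AT1G69530; plus strand of chromosome 1, chr1:26141726-26143538, 3 merged exons), which has been linked to guard cell walls and to lateral root initiation, fell. It stood at 101.8, 119.6 and 98.7 FPKM in hy5 4, 5 and 6, against 158.8, 182.3 and 148.7 FPKM in Col_0 1, 2 and 3. The highest hy5 library was below the lowest Col_0 library. The means were 106.7 ± 11.3 FPKM in hy5 and 163.3 ± 17.3 FPKM in Col_0 (SD, n = 3 each), or 0.654 times the Col_0 level (log2 fold change -0.61 with SE 0.10, limma adjusted p = 0.00099). Its closest member, EXPA10 (AT1G26770; plus strand, chr1:9259432-9261313), with 78.4% of aligned coding bases identical, has been tied to leaf growth and pedicel abscission. EXPA10 fell as well, to 11.1, 14.5 and 12.1 FPKM in hy5 4, 5 and 6, against 18.0, 20.6 and 16.9 FPKM in Col_0 1, 2 and 3 (log2 fold change -0.52, SE 0.12, limma adjusted p = 0.0063). In both genes library 5 was the highest of hy5 and library 2 the highest of Col_0.

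**Figure D2:**
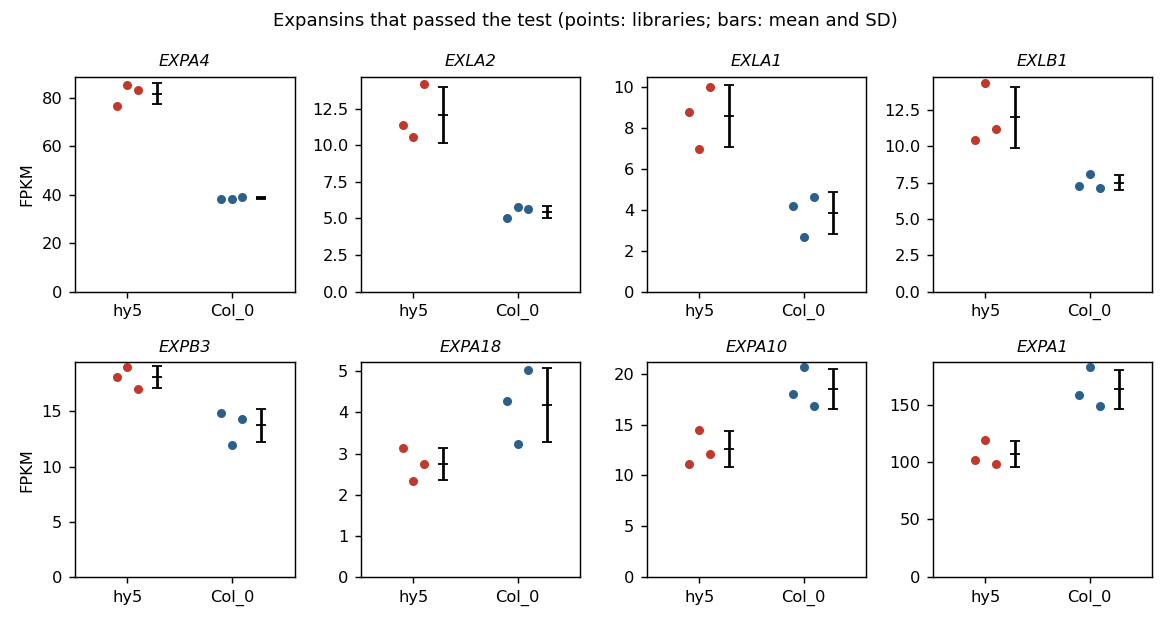
FPKM of the 8 expansins that passed the test in each library (points), with mean and SD (bars, n = 3), hy5 left and Col_0 right; each axis starts at 0. The hy5 and Col_0 points do not overlap in any of the 8 genes, and EXPA18 has the smallest gap (3.13 FPKM at most in hy5, 3.24 FPKM at least in Col_0).

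With EXPA4 higher and EXPA1 lower, the make-up of the expansin transcript pool differed between genotypes while its summed level overlapped. The 34 genes summed to 595.7 ± 29.6 FPKM in hy5 and 597.5 ± 33.95 FPKM in Col_0 (SD, n = 3 each). EXPA1 made up 17.9 ± 1.17% of that sum in hy5 and 27.3 ± 1.38% in Col_0, and EXPA4 made up 13.7 ± 0.31% and 6.47 ± 0.43% (SD, n = 3 each). The expansin-like genes held 5.16% to 6.1% of the sum in hy5 libraries and 2.6% to 3.04% in Col_0 libraries. The level of EXPA1 was 1.33, 1.40 and 1.19 times that of EXPA4 in hy5 4, 5 and 6, against 4.14, 4.78 and 3.80 times in Col_0 1, 2 and 3. The ratio within a library does not depend on scaling between libraries.

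**Figure D3:**
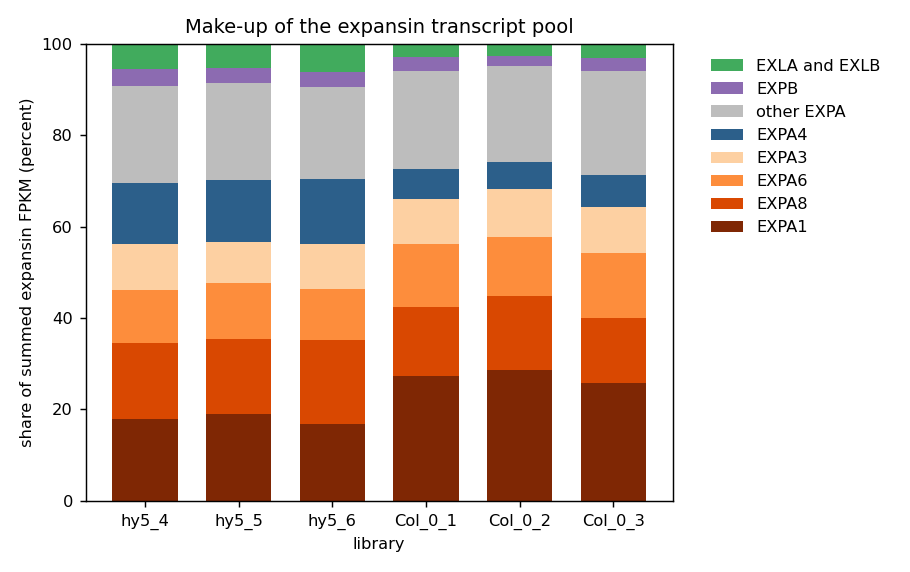
Share of the summed FPKM of the 34 expansins taken by each gene or group (percent, stacked to 100) in hy5 libraries 4 to 6 (left) and Col_0 libraries 1 to 3 (right). The EXPA1 block is 16.7% to 19.1% in hy5 and 25.9% to 28.6% in Col_0, and the EXPA4 and expansin-like blocks are larger in hy5.

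In both genotypes 5 alpha-expansins held most of the pool, 69.6% to 70.4% of the sum in hy5 libraries and 71.2% to 74.2% in Col_0 libraries. By mean level they ranked EXPA1, EXPA8, EXPA4, EXPA6 and EXPA3 in hy5, and EXPA1, EXPA8, EXPA6, EXPA3 and EXPA4 in Col_0. EXPA1 and EXPA8 overlapped in hy5 (98.7 to 119.6 against 94.8 to 109.5 FPKM), while in Col_0 every EXPA1 value was above every EXPA8 value (148.7 to 182.3 against 81.3 to 102.6 FPKM). EXPA8 did not pass between genotypes, at 102.3 ± 7.34 FPKM in hy5 and 90.6 ± 10.9 FPKM in Col_0 (SD, n = 3 each), with a 95% interval of -0.04 to 0.39 on the log2 scale. EXPA3, entered as EXP3 in the reference, stood at 57.6 ± 1.29 FPKM in hy5 and 61.0 ± 4.46 FPKM in Col_0 (SD, n = 3 each) and did not pass, with a 95% interval of -0.26 to 0.11.

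**Figure D4:**
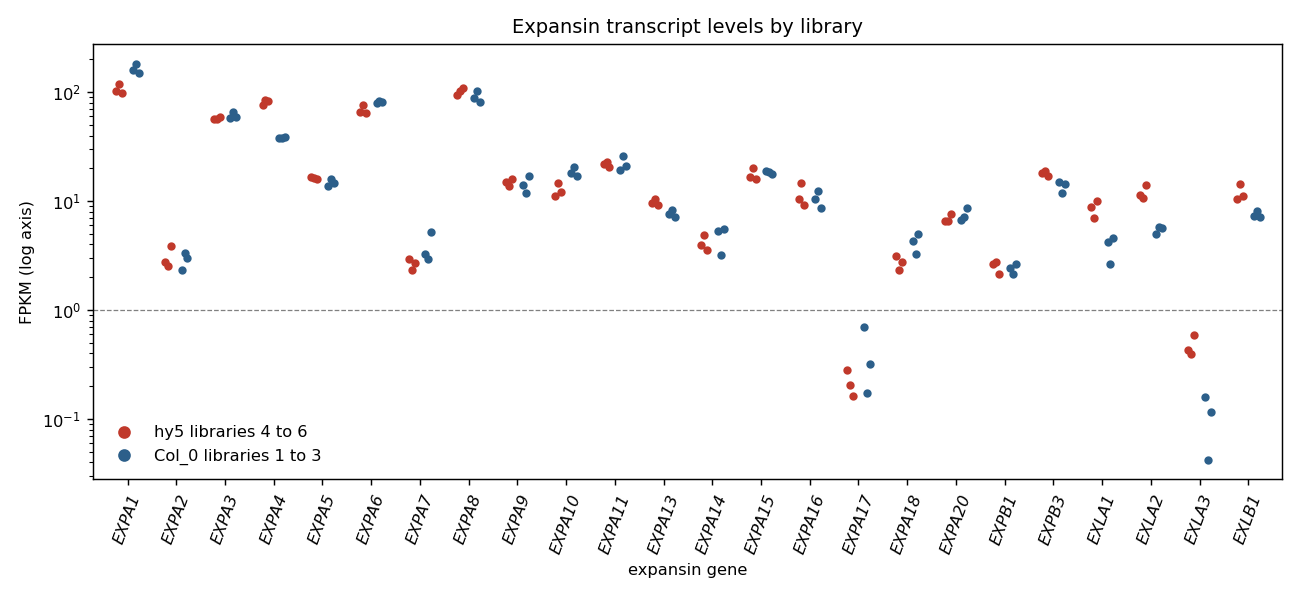
FPKM on a log axis of every expansin that was tested or reached 0.5 FPKM in a library, one point per library, hy5 left of Col_0; the dashed line marks 1 FPKM. Levels span from EXLA3 and EXPA17, below 1 FPKM in all libraries, to EXPA1 and EXPA8 near 100 FPKM in hy5.

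The expansin-like genes rose. EXLA2 (AT4G38400; minus strand, chr4:17978422-17979740), whose loss has been reported to alter resistance to a necrotrophic fungus, was at 11.4, 10.6 and 14.2 FPKM in hy5 4, 5 and 6, against 5.01, 5.75 and 5.61 FPKM in Col_0 1, 2 and 3. The mean was 2.21 times the Col_0 level (log2 fold change 1.01, SE 0.13, limma adjusted p = 0.00012). EXLA1 (AT3G45970; plus strand, chr3:16896166-16897308) was at 8.78, 6.99 and 10.01 FPKM in hy5 4, 5 and 6, against 4.19, 2.67 and 4.62 FPKM in Col_0 1, 2 and 3. Library 5 was the lowest of hy5 and library 2 the lowest of Col_0, and the genotypes did not overlap. The means were 8.59 ± 1.52 FPKM in hy5 and 3.82 ± 1.02 FPKM in Col_0 (SD, n = 3 each; log2 fold change 1.0, SE 0.17, limma adjusted p = 0.0010). EXLA1 shares its last 22 bases with the oppositely transcribed histone gene HTB9, which stood at 111.3 to 113.8 FPKM in hy5 and 110.1 to 126.5 FPKM in Col_0, and whether reads were assigned by strand is not given in the sources used here.

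EXLA3 (AT3G45960; chr3:16892702-16894153) lies 2012 bases before EXLA1 on the same strand and is its closest relative, with 86.6% of aligned coding bases identical. It was below the expression filter, at 0.429, 0.398 and 0.592 FPKM in hy5 4, 5 and 6 and 0.159, 0.0423 and 0.116 FPKM in Col_0 1, 2 and 3. Every hy5 value was above every Col_0 value. When the filter was removed it passed, with a log2 fold change of 0.41 (SE 0.081, limma adjusted p = 0.010 over 22416 genes). EXLB1 (AT4G17030; minus strand, chr4:9581562-9583290), the only gene of its family in the list, was at 10.4, 14.4 and 11.2 FPKM in hy5 4, 5 and 6, against 7.28, 8.09 and 7.11 FPKM in Col_0 1, 2 and 3 (log2 fold change 0.60 with SE 0.13, limma adjusted p = 0.0045). Its nearest expansin shares 59.6% of aligned coding bases, so it stands far from the EXLA genes in sequence.

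HY5 binds elements with an ACGT core, among them the G-box CACGTG, so the 250 bases before each annotated gene start were read from the RefSeq TAIR10.1 genome. These windows are shown for EXPA4 and EXPA1, the most abundant genes that rose and fell, and for the EXLA pair that rose together, 5′ to 3′ in the direction of transcription, with ACGT in capitals. They are chr2:16545747-16545996 (minus strand) for EXPA4, chr1:26141476-26141725 (plus strand) for EXPA1, chr3:16895916-16896165 (plus strand) for EXLA1 and chr4:17979741-17979990 (minus strand) for EXLA2.
EXPA4: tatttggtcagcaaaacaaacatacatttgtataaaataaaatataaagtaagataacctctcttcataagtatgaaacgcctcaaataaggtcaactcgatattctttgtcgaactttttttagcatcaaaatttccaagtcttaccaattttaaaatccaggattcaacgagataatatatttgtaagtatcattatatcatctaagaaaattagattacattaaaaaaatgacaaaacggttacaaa
EXPA1: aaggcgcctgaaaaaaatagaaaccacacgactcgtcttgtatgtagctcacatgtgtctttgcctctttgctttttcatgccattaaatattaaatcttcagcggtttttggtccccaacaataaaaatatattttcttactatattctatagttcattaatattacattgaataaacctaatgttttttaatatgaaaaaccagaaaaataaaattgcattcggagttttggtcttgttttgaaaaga
EXLA1: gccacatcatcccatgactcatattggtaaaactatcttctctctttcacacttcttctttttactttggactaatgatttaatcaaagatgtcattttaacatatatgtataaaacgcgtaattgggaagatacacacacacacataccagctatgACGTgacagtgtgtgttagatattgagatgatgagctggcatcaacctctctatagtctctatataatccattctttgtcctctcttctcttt
EXLA2: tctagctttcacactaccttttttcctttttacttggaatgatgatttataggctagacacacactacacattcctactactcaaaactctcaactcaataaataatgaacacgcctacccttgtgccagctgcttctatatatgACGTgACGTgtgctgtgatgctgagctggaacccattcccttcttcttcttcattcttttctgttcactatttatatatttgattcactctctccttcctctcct
The EXPA4 and EXPA1 windows hold no ACGT, the EXLA1 window holds 1 and the EXLA2 window holds 2. Windows of the other expansin-like genes, EXLA3 and EXLB1, hold none, nor do those of EXPB3 and EXPA10, while that of EXPA18 holds 1. The EXLA1 core and the first EXLA2 core sit in an 11-base run that both windows share, tatgACGTgac, which begins 97 bases before the EXLA1 start and 109 bases before the EXLA2 start. ACGT, which reads the same on both strands, was present in 14 of the 34 expansin windows (41.2%) and in 44.0% of 26983 windows of the same length over all genes. CACGTG, which contains ACGT and also reads the same on both strands, was present in 1 expansin window, that of EXPB2, against 6.5% of all windows. In windows of 1000 bases it was present for EXPA2, EXPA20 and EXPB2, 8.8% of the expansins, against 14.8% of all genes. The longer motif TGACGTG, which contains ACGT, was chosen after the EXLA windows had been read. It was present on either strand for EXLA1, EXLA2 and EXPA7, 8.82% of expansin windows, against 2.9% of all windows. Because EXLA1 and EXLA2 were the windows read, these shares cannot be compared as a test of enrichment. A match is a description of letters and not a binding site.

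EXPB3 (AT4G28250; minus strand, chr4:13999625-14002124) rose to 18.1, 19.0 and 17.1 FPKM in hy5 4, 5 and 6, against 14.8, 12.0 and 14.3 FPKM in Col_0 1, 2 and 3. The genotypes did not overlap, and the mean was 1.32 times the Col_0 level (log2 fold change 0.38, SE 0.11, limma adjusted p = 0.021). The call was lost without Col_0 2 (limma adjusted p = 0.087), hy5 4 (0.079), hy5 5 (0.072) or hy5 6 (0.0501). Its closest relative EXPB1, with 78.4% of aligned coding bases identical, did not pass, at 2.51 ± 0.33 FPKM in hy5 and 2.40 ± 0.25 FPKM in Col_0 (SD, n = 3 each). EXPB2, EXPB4 and EXPB5 were listed at 0 in all 6 libraries.

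EXPA7 and EXPA18 encode the expansins of root hair cells and are each other's closest relative, with 74.3% of aligned coding bases identical. EXPA18 (AT1G62980) was at 3.13, 2.34 and 2.75 FPKM in hy5 4, 5 and 6, against 4.28, 3.24 and 5.02 FPKM in Col_0 1, 2 and 3, and fell narrowly (log2 fold change -0.46, SE 0.16, limma adjusted p = 0.047). The call was lost without Col_0 1 (limma adjusted p = 0.11), Col_0 3 (0.12), hy5 4 (0.064), hy5 5 (0.15) or hy5 6 (0.12). It was also lost with a pseudocount of 0.1 (limma adjusted p = 0.050, just above the threshold), with no filter (0.076), and under median ratio (0.0502) or quantile scaling (0.060). EXPA7 (AT1G12560) was at 2.93, 2.35 and 2.69 FPKM in hy5 4, 5 and 6 and at 3.30, 2.93 and 5.16 FPKM in Col_0 1, 2 and 3. It did not pass (log2 fold change -0.37 with SE 0.17, limma adjusted p = 0.13), and the genotypes met at 2.93 FPKM. EXPA7 shares 23 bases with the oppositely transcribed gene AT1G12570, which was at 0.0166 to 0.0814 FPKM in hy5 and 1.45 to 1.65 FPKM in Col_0.

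Of 8 root hair markers 5 were tested, and 3 fell (PRP1, PRP3 and LRX1) while COBL9 and RHD2 did not pass (limma adjusted p = 0.15 and 0.53). The 3 that fell are 60% of those tested, beside 11.1% of all tested genes. The summed level of the 8 markers was 21.8 to 27.0 FPKM in hy5 libraries and 40.1 to 55.7 FPKM in Col_0 libraries. In every library PRP3 was the largest part of that sum. PRP3, a root hair wall protein gene, was at 15.9 ± 1.76 FPKM in hy5 and 26.1 ± 5.95 FPKM in Col_0 (SD, n = 3 each; log2 fold change -0.66, SE 0.14, limma adjusted p = 0.0053). RHD6, a regulator of root hair formation, was below the filter, at 0.870 to 1.0 FPKM in hy5 and 0.793 to 1.05 FPKM in Col_0. RSL4 and PIP5K3 were below the filter too. RSL4 was at 0.308 to 0.413 FPKM in hy5 and 0.709 to 1.09 FPKM in Col_0, with no overlap. PIP5K3 was at 0.159 to 0.263 FPKM in hy5 and 0.240 to 0.426 FPKM in Col_0, with overlap. No root hair marker was listed at 0. Of 6 markers of other root tissues 5 were tested, and CASP1, CASP2 and SHR rose while SCR (log2 fold change -0.15) and WER (0.03) did not pass. The share that rose was 60% of those tested, beside 11.7% of all tested genes. The summed level of the 6 was 111.1 to 121.6 FPKM in hy5 and 64.9 to 90.4 FPKM in Col_0. CASP1 had the largest mean of the 6, at 52.9 FPKM in hy5 and 27.6 FPKM in Col_0. CASP2 averaged 25.7 FPKM in hy5 and 13.2 FPKM in Col_0. The part of these marker differences in the expansin values was not tested.

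**Figure D5:**
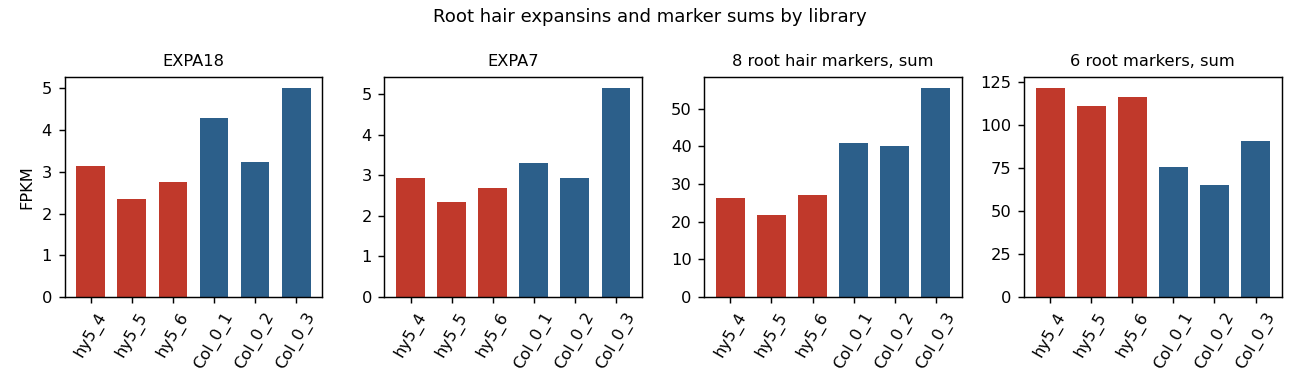
FPKM per library of EXPA18 and EXPA7 and the summed FPKM of the 8 root hair and 6 root markers, hy5 libraries 4 to 6 (red, left) and Col_0 libraries 1 to 3 (blue, right); bars start at 0. Col_0 3 is the highest library for both expansins and for the root hair sum, and hy5 5 is the lowest.

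EXPA14, EXPA17 and EXPA2 did not pass or were too low to test. EXPA14, which acts in lateral root emergence, was at 4.13 ± 0.70 FPKM in hy5 and 4.69 ± 1.27 FPKM in Col_0 (SD, n = 3 each). EXPA17, with a like role, was below the filter, at 0.282, 0.205 and 0.162 FPKM in hy5 4, 5 and 6 and 0.699, 0.175 and 0.321 FPKM in Col_0 1, 2 and 3, and the genotypes overlapped. EXPA2, which is expressed in the endosperm of germinating seeds, was at 2.75, 2.52 and 3.89 FPKM in hy5 4, 5 and 6 and 2.31, 3.32 and 2.97 FPKM in Col_0 1, 2 and 3. It did not pass (95% interval -0.29 to 0.41 on the log2 scale). The summed level of 5 seed storage and oil body markers was 1.58 to 9.73 FPKM in hy5 and 32.4 to 186.2 FPKM in Col_0. Of those 5 markers, 3 fell (60%), beside 11.1% of all tested genes.

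The other alpha-expansins of intermediate level showed no change past the threshold. EXPA13 came closest, at 9.65, 10.5 and 9.22 FPKM in hy5 4, 5 and 6, against 7.58, 8.24 and 7.21 FPKM in Col_0 1, 2 and 3, with no overlap (log2 fold change 0.32, SE 0.11, limma adjusted p = 0.056). It passed with a filter at 5 FPKM (limma adjusted p = 0.049) and under median ratio (0.042), upper quartile (0.049) and quantile (0.045) scaling. EXPA5, which has been linked to brassinosteroid-dependent growth, was at 16.3 ± 0.45 FPKM in hy5 and 14.8 ± 0.98 FPKM in Col_0 (SD, n = 3 each). EXPA11 was at 21.9 ± 1.12 FPKM in hy5 and 22.1 ± 3.52 FPKM in Col_0, and EXPA15 at 17.6 ± 2.35 FPKM in hy5 and 18.5 ± 0.56 FPKM in Col_0 (SD, n = 3 each). EXPA9 was at 14.9 ± 1.13 FPKM in hy5 and 14.3 ± 2.59 FPKM in Col_0, and EXPA20 at 6.93 ± 0.57 FPKM in hy5 and 7.51 ± 1.01 FPKM in Col_0 (SD, n = 3 each). The genotypes overlapped in EXPA5, EXPA9, EXPA11, EXPA15 and EXPA20. EXPA20 lies for most of its length across an oppositely transcribed noncoding RNA gene, with 1061 bases shared, so its reads cannot be assigned by strand with certainty.

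Of the 12 genes below the filter, 9 were listed at 0 in every library. They are EXPB2, EXPB4, EXPB5 and the 6 genes EXPA21 to EXPA26, which lie side by side on the minus strand of chromosome 5 (chr5:15726243-15740605). Within that cluster EXPA22 and EXPA26 are identical at 97.7% of aligned coding bases, and EXPA23 and EXPA25 at 97.5%, and how reads shared by such copies were counted is not given in the sources used here. EXPA21, also in that cluster, shares 964 bases with the oppositely transcribed gene AT5G39250. That gene was at 3.15 to 4.78 FPKM in hy5 and 3.32 to 3.92 FPKM in Col_0. How reads in the shared stretch were assigned is not given in the sources used here. Part of EXPB5, 249 bases long, is 99.6% identical to a stretch of the gene AT3G60565. EXPA12 was listed at 0, 0.134 and 0.0666 FPKM in hy5 4, 5 and 6 and at 0 in the Col_0 libraries. With EXPA17 and EXLA3, described above, this accounts for all 12.

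Among the partners of expansins in acid growth, 1 proton pump gene fell and 3 phosphatase genes rose. The share of tested pumps that fell, 12.5%, is near the 11.1% of all tested genes. Of 11 plasma membrane H+-ATPase genes (AHA1 to AHA11), which pump the protons that acidify the wall, 8 were tested and 7 did not pass. The most abundant pumps did not pass, with AHA1 at 224.1 ± 8.07 FPKM in hy5 and 245.8 ± 16.1 FPKM in Col_0, and AHA2 at 212.4 ± 4.16 FPKM in hy5 and 217.0 ± 28.2 FPKM in Col_0 (SD, n = 3 each). The gene that fell was AHA8, known for its expression in pollen, at 1.12, 0.995 and 0.776 FPKM in hy5 4, 5 and 6, against 3.05, 3.88 and 2.95 FPKM in Col_0 1, 2 and 3 (log2 fold change -1.12, SE 0.15, limma adjusted p = 0.00015). It overlaps an oppositely transcribed noncoding RNA gene.

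Clade D protein phosphatases 2C include enzymes that remove the activating phosphate from these pumps, and SAUR proteins in turn inhibit such phosphatases. Whether each gene of the clade acts on the pumps was not tested. All 9 genes of this group were tested and 6 did not pass, with a median log2 fold change of 0.31. AT5G02760 rose most, to 30.6, 44.3 and 43.3 FPKM in hy5 4, 5 and 6, against 19.8, 22.2 and 15.5 FPKM in Col_0 1, 2 and 3 (log2 fold change 1.0, SE 0.16, limma adjusted p = 0.0013). AT4G33920 was at 8.77 ± 0.15 FPKM in hy5 and 6.17 ± 0.72 FPKM in Col_0, and AT3G17090 at 35.1 ± 0.45 FPKM in hy5 and 27.9 ± 2.95 FPKM in Col_0 (SD, n = 3 each). Leaving out hy5 4 or hy5 6 ended the calls of AT4G33920 (limma adjusted p = 0.063 and 0.054) and AT3G17090 (0.092 in each case), and the AT3G17090 call was also lost without Col_0 2 (0.0503) and with neither trend nor robust moderation (0.057). Both AT5G02760 and AT4G33920 overlap other annotated genes. For the pumps and phosphatases together, 17.6% of 17 tested genes rose and 5.88% fell, beside 11.7% and 11.1% of all tested genes. Taken apart, 0% of the 8 tested pumps rose and 12.5% fell, while 33.3% of the 9 phosphatases rose and 0% fell. The log2 fold changes of the tested pumps ran from -1.12 to -0.02, with a median of -0.13.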

How the data were processed

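RNA-seq of whole seedlings was done on an Illumina platform. Per the file headers, the authors deposited FPKM per gene for each library. The submitters' processing notes list TAIR10 as the build and, as tools with no stated role, Cufflinks, TopHat, Bowtie2, HISAT2 2.2.1.0, DESeq 1.18.0 and Trimmomatic 0.36. Not given in the sources used here are the annotation, the use of strand and the treatment of shared reads. FPKM keeps no read counts, so the precision of low genes is unknown.

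Sample titles gave the genotype and number of each library. No pair of libraries shared an equal value above 0 in any gene. Genes that reached 1 FPKM in 3 or more libraries entered the test, on log2(FPKM + 1), and genotypes were compared with limma 3.58.1 in R 4.3.3 (trended, robust empirical Bayes, two-sided), with Benjamini-Hochberg adjustment over 17205 genes and a threshold of 0.05. The fit was also run, without the filter, on simulated data with independent noise in each library, so that run gives no support to the calls here.

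The members, the marker lists, the acid growth list and the tests were chosen with earlier results of these data known. Each tested expansin is named, as is any reaching 0.5 FPKM in a library, each pump or phosphatase past the threshold, and up to 3 markers per list; others were chosen after their values were seen. Phosphatases are given by locus because the reference holds no clade D symbol.

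Symbols, gene models and coordinates came from RefSeq TAIR10.1. Coding sequences were aligned end to end (Biopython 1.88), and exons were searched against the genome (blastn 2.17.0). Alternatives were a pseudocount of 0.1 or 5, dropping the filter or raising it to 5 FPKM, 3 rescalings, plain moderation and leaving out each library. Python 3.11.15 and matplotlib 3.10.9 were used.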

Additional observations from a re-analysis of the deposited data

How the results depend on the processing

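No paired analysis was possible because library numbers 1 to 3 and 4 to 6 are not shared between genotypes. Of the 8 expansins that passed, 6 (EXPA1, EXPA4, EXPA10, EXLA1, EXLA2 and EXLB1) kept the call in all 14 alternatives, and EXPB3 and EXPA18 lost it in some; none changed sign. Of the 14 that did not pass, 12 passed in no alternative that gave a value, the exceptions being EXPA6 and EXPA13. The cause of these shifts was not tested. With a filter at 5 FPKM, EXPA2, EXPA7, EXPA14, EXPA18 and EXPB1 gave no value because they were not among the genes tested.

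The count of alpha-expansins higher in hy5 was 1 and became 2 with a filter at 5 FPKM and with median ratio, upper quartile or quantile scaling. Over the leave-one-out fits, 4 to 5 expansins were higher and 2 to 3 lower, 0 to 1 beta-expansins were higher, and all 3 tested expansin-like genes stayed higher. The 3 higher acid growth genes became 5 with quantile normalization and 1 to 3 when a library was left out. The 1 lower gene became 0 with a filter at 5 FPKM, which removes AHA8, and 1 to 2 when a library was left out. All calls over the transcriptome numbered 3915, and 2028 to 4309 when a library was left out, the lowest without hy5 6 and 2201 without hy5 4. The median log2 fold change of all genes stayed between -0.0116 and -0.0024 under the 3 rescalings. With 3 libraries per genotype and no read counts, genes below 1 FPKM, such as EXLA3 and EXPA17, rest on few fragments.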
